A study of Mus musculus with 8 samples.

Results

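Hyaluronan synthesis and the syndecans were followed as 9 genes of 19937 measured in NMuMG, an epithelial cell line from the mouse mammary gland. The genes were the hyaluronan synthases Has1, Has2 and Has3, the hyaluronidase Hyal2, the hyaluronan receptor Cd44 and the syndecans Sdc1 to Sdc4. Each was read by 1 probeset of an Affymetrix gene array, and a member was any probeset whose single gene symbol was 1 of these names. Has2 and Sdc3 were chosen by their measured log2 difference with TGFbeta, which was strong in earlier results of these data, so their TGFbeta values are a description without a test. The other 7 were taken as paralogs of these genes, as an enzyme of hyaluronan breakdown and as the hyaluronan receptor.

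All cells were NMuMG cells with a stably integrated vector, and total RNA was labelled for the arrays. The 4 groups were cells with a vector holding major satellite sequences after 8 h of TGFbeta, the same cells untreated (0 h), cells with a control vector after 8 h of TGFbeta, and those cells untreated. Each group had 2 arrays, which limits the precision. The array titles carried 1 of 2 codes, each on 1 array of every group. These codes are used as replicate numbers 1 and 2, and every list of 2 values below gives number 1 first. Whether a line was 1 clone or a pool, and the dose and form of TGFbeta, are not given in the sources used here, and the satellite transcript itself was not analysed here.

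Hyaluronan is a long unsulfated sugar chain that hyaluronan synthases make at the plasma membrane and extrude into the space around the cell. Hyaluronidases cut it, and Cd44 binds it at the cell surface. Syndecans are transmembrane core proteins that carry heparan sulfate chains, through which they bind growth factors and matrix proteins. In mammary epithelium, TGFbeta drives cells towards a mesenchymal state, a change in which hyaluronan and cell-surface proteoglycans have long been studied.

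The window of 250 bases before the RefSeq start site (GRCm38.p6) is shown for 3 syndecan genes, because Sdc3 differed most with TGFbeta in this family, while Sdc1 differed little and Sdc4 passed in neither model. Of the 9 genes, 6 matched the RefSeq promoter table (Has1, Hyal2, Cd44, Sdc1, Sdc3 and Sdc4). Has2, Has3 and Sdc2 are named only. The windows lie at chr4:130792287-130792536 on the plus strand (Sdc3), chr12:8771146-8771395 on the plus strand (Sdc1) and chr2:164443189-164443438 on the minus strand (Sdc4). Capitals mark the Smad half-site CAGAC (or GTCTG, its other strand) and the GC box GGGCGG (or CCGCCC).
Sdc3: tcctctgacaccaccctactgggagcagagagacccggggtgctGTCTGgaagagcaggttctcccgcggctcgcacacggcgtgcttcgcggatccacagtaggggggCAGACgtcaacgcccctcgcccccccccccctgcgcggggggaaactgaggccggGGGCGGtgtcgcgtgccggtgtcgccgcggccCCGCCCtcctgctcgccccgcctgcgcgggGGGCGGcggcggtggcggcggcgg
Sdc1: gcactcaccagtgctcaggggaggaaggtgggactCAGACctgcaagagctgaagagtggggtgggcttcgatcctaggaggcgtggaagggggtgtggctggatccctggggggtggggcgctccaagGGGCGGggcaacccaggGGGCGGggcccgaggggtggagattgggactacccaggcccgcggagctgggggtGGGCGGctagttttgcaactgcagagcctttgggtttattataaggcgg
Sdc4: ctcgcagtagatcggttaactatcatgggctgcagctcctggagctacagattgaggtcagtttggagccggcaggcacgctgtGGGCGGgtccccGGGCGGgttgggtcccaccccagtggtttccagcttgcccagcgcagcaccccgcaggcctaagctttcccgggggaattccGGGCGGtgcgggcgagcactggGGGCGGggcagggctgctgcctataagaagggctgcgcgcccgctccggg

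The Sdc3 window held 2 Smad half-sites, starting 206 and 141 bases before the start site, and 3 GC boxes. The Sdc1 window held 1 Smad half-site, 215 bases before the start, and 3 GC boxes, and the Sdc4 window 0 Smad half-sites and 4 GC boxes. Both strands were searched, and the 2 marked motifs do not overlap in these windows. Of 32851 windows of this length in the table, 42.2% held at least 1 Smad half-site and 11.7% at least 2. At least 1 GC box was in 32.7% and at least 2 in 16.7%. The AP-1 motif TGANTCA, which reads the same on both strands, was in 6.7% of all windows and in 0 of the 6 windows of these genes. The letters C and G made up 76.4% of the Sdc3 window, 66.0% of the Sdc1 window and 68.0% of the Sdc4 window, against a median of 52.4% over all windows. Beyond these 3, the Has1 window held 2 Smad half-sites and the Hyal2 and Cd44 windows 0. The Hyal2 window held 1 GC box and the Has1 and Cd44 windows 0. A match of letters is a description, not a binding site.

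Levels are log2 values from RMA (robust multi-array averaging), a scale on which a difference of 1 is a change of 2-fold. Probes differ in how brightly they bind, so a change in level is read only within a gene. A percentile among all genes, where given, is only a rough guide to a gene's level. Array medians over all genes were 8.19 to 8.23 for replicate number 1 and 8.15 for number 2. For the epithelial label, 6 of 10 markers lay above the array median, among them Krt8, Krt18, Krt19 and Cdh1, while Epcam, Cldn7, Esrp1 and Grhl2 lay in the lower part of the arrays, at the 14.6th to 26.6th percentile of all genes. Of the markers of other cell types, 0 of 6 endothelial, 1 of 6 immune (Cd68) and 3 of 9 fibroblast markers (Col1a1, Col1a2 and Col3a1) lay above the array median. The summed log2 level of the 9 fibroblast markers was 64.02 to 64.79 in TGFbeta-treated major satellite cells and 61.65 to 63.26 in untreated ones, and 63.58 to 64.83 in TGFbeta-treated control vector cells and 61.05 to 63.63 in untreated ones. The sums of the other 3 lists also had higher lowest and highest values with TGFbeta in both vectors. For epithelial markers, major satellite cells had 97.43 to 99.17 treated, against 96.56 to 97.85 untreated. For endothelial ones they had 41.91 to 43.55 against 41.21 to 42.94, and for immune ones 41.82 to 43.15 against 41.38 to 42.32. The part of these markers in the results below was not tested.

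Has2 makes the high-molecular-weight hyaluronan of most tissues and is the synthase needed for heart development in mice. It had log2 levels of 9.34 and 9.83 in TGFbeta-treated major satellite cells, against 6.55 and 6.03 in untreated ones. In cells with the control vector it had 9.44 and 9.46 after TGFbeta, against 6.58 and 6.15 untreated. All 4 TGFbeta arrays lay more than 2 log2 units above all 4 untreated arrays. The mean difference was 3.29 in major satellite cells, or 9.81-fold, and 3.08 in control vector cells, or 8.48-fold. By size of rise, Has2 ranked number 3 of 19937 genes in major satellite cells and number 4 in control vector cells. Within the replicate numbers, the difference was 2.79 and 3.80 in major satellite cells and 2.86 and 3.31 in control vector cells. It was thus larger in number 2 for both vectors, where the untreated level was also the lower of the pair. Untreated Has2 lay at the 14.0th to 21.4th percentile of all genes on its array. With no detection call in the table, such a level is not told apart from background, so the folds and ranks are those of the table's values and a fold of the RNA itself was not measured. In bulk RNA of this kind, more cells expressing a gene and more RNA per cell cannot be told apart.

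Has3, a synthase of the same family, had 7.39 and 7.19 in TGFbeta-treated major satellite cells, against 6.60 and 6.46 in untreated ones. With the control vector it had 7.16 and 7.54 after TGFbeta, against 6.62 and 6.72 untreated. The 4 treated arrays all lay above the 4 untreated ones. Untreated Has3 lay at the 20.6th to 25.5th percentile of all genes on its array, a level that is not told apart from background without a detection call. The difference was 0.76 ± 0.16 in major satellite cells and 0.68 ± 0.16 in control vector cells (± standard error, SE), and limma's adjusted p was 0.113 and 0.15, so neither passed at 0.05. When the limma model also held the replicate number, a fit called blocked from here on, both passed (adjusted p = 0.0052 in major satellite and 0.00863 in control vector cells). The blocked call in control vector cells was lost without either untreated control vector array or without the TGFbeta-treated array of number 2 (adjusted p up to 0.1). That in major satellite cells was lost without the untreated array of number 2 (adjusted p = 0.0703).

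Has1, the third synthase gene, had 6.69 and 6.59 in TGFbeta-treated major satellite cells, against 6.68 and 6.63 in untreated ones. The control vector cells had 6.64 and 6.70 after TGFbeta, against 6.75 and 6.74 untreated. All 8 values thus lay within 0.16 of each other. The differences were -0.02 ± 0.11 in major satellite cells and -0.07 ± 0.11 in control vector cells (adjusted p = 0.997 and 1, blocked 0.904 and 0.698). Their blocked 95% intervals were -0.21 to 0.17 and -0.26 to 0.12. The Has1 probeset was among the lowest 25% of genes by mean level, and the table carries no detection call, so a level near background is not told apart from a low one.

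Hyal2 is a hyaluronidase anchored to the cell surface that cuts long hyaluronan into shorter chains. It had 9.64 and 9.10 in TGFbeta-treated major satellite cells, against 9.12 and 8.59 in untreated ones. Cells with the control vector had 9.48 and 9.06 after TGFbeta, against 9.13 and 8.56 untreated. Treated and untreated arrays overlapped over all 8, but within each replicate number the treated array was the higher. The difference was 0.52 ± 0.30 in major satellite cells and 0.43 ± 0.30 in control vector cells (adjusted p = 0.769 and 0.959). Blocked, the same differences had an SE of 0.08 and passed (adjusted p = 0.00349 and 0.00925). The blocked call in control vector cells was lost without the untreated or the treated array of number 2. That in major satellite cells held whichever array was left out.

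Cd44 is the main cell-surface receptor for hyaluronan. It had 12.34 and 12.46 in TGFbeta-treated major satellite cells, against 12.02 and 12.10 in untreated ones. In control vector cells it had 12.51 and 12.65 after TGFbeta, against 11.97 and 12.06 untreated. All treated arrays lay above all untreated ones. The difference of 0.34 ± 0.12 in major satellite cells did not pass (adjusted p = 0.371, blocked 0.0224), nor did that of 0.56 ± 0.12 in control vector cells (adjusted p = 0.104, blocked 0.00178). The blocked call in control vector cells held without any 1 array. That in major satellite cells was lost without any of the 4 major satellite arrays (adjusted p up to 0.188). Cd44 is known to be spliced into several forms, which 1 value per gene does not tell apart.

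Sdc3 is the syndecan best known from the nervous system and from developing muscle. It had 11.66 and 11.24 in TGFbeta-treated major satellite cells, against 9.36 and 8.75 in untreated ones. With the control vector it had 11.75 and 11.39 after TGFbeta, against 9.37 and 8.72 untreated. The lowest treated array lay 1.87 above the highest untreated one. The mean difference was 2.40 in major satellite cells, or 5.27-fold, and 2.52 in control vector cells, or 5.75-fold. Sdc3 ranked number 10 by size of rise in major satellite cells and number 7 in control vector cells. Within the replicate numbers the difference was 2.30 and 2.49 in major satellite cells and 2.38 and 2.66 in control vector cells. As for Has2, it was the larger in number 2 for both vectors.

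Sdc1 is the principal syndecan of epithelia. It had 12.88 and 12.40 in TGFbeta-treated major satellite cells, against 12.60 and 12.09 in untreated ones. The control vector cells had 12.91 and 12.41 after TGFbeta, against 12.55 and 12.09 untreated. The treated array was the higher in all 4 pairs, while treated and untreated arrays overlapped over all 8. The difference was 0.29 ± 0.29 in major satellite cells (adjusted p = 0.949, blocked 0.0385) and 0.34 ± 0.29 in control vector cells (adjusted p = 1, blocked 0.0208). Blocked, the call in major satellite cells was lost whichever array was left out, with adjusted p from 0.0552 to 0.242. That in control vector cells was lost without any of the 4 control vector arrays (adjusted p up to 0.135).

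Sdc4 is a syndecan of focal adhesions. It had 11.95 and 11.61 in TGFbeta-treated major satellite cells, against 11.83 and 11.54 in untreated ones. Cells with the control vector had 11.88 and 11.79 after TGFbeta, against 11.96 and 11.57 untreated. The treated array was the lower in 1 of the 4 pairs, number 1 of the control vector cells. The difference was 0.09 ± 0.19 in major satellite cells and 0.07 ± 0.19 in control vector cells (adjusted p = 0.988 and 1, blocked 0.575 and 0.715). The blocked intervals were -0.12 to 0.31 and -0.14 to 0.29.

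Sdc2 is a syndecan of mesenchymal cells and fibroblasts. It had 8.25 and 8.17 in TGFbeta-treated major satellite cells, against 8.49 and 8.07 in untreated ones. In control vector cells it had 8.60 and 8.26 after TGFbeta, against 8.48 and 8.16 untreated. The sign of the difference varied between the pairs of the major satellite cells (-0.24 and 0.10) and was the same in both pairs of the control vector cells (0.12 and 0.10). The difference was -0.07 ± 0.20 in major satellite cells and 0.11 ± 0.20 in control vector cells (adjusted p = 0.993 and 1, blocked 0.703 and 0.569). The blocked intervals were -0.29 to 0.16 and -0.11 to 0.34.

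**Figure D1:**
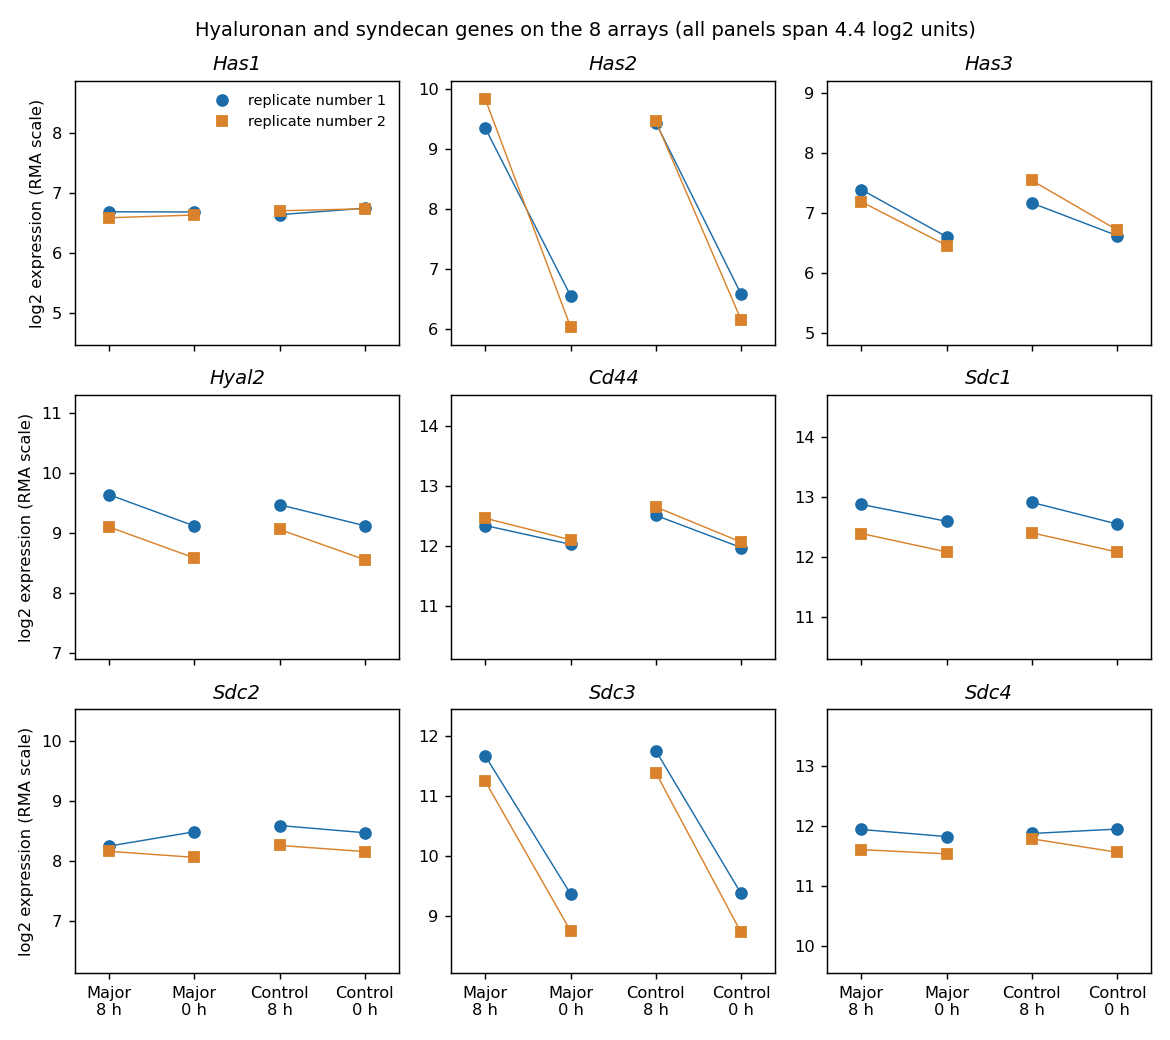
Log2 expression (RMA scale, y axis) of the 9 genes in the 4 groups (x axis), with 1 point per array and lines joining treated and untreated arrays of the same vector and replicate number. Every panel spans the same log2 range, and Has2 and Sdc3 have their 4 treated arrays far above their 4 untreated ones, at 9.34 or more against 6.58 or less for Has2 and 11.24 or more against 9.37 or less for Sdc3.

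Without the block, 0 of the 7 genes not chosen for their rise passed with TGFbeta in either vector, and 2 of the 7 in each vector (Has3 and Cd44) had an unadjusted limma p under 0.05, as did 1937 of all 19937 genes in major satellite and 1863 in control vector cells. At the adjusted p, 1.09% of all genes passed in major satellite cells and 1.07% in control vector cells. Blocked, 4 of these 7 genes rose in both vectors (Has3, Hyal2, Cd44 and Sdc1) and 0 fell. Of all 19937 genes, 6.89% rose blocked in major satellite cells and 6.92% in control vector cells. The median difference of the 7 genes was 0.29 in major satellite cells and 0.34 in control vector cells, beside 0.03 and 0.01 over all genes. Over all 8 arrays, the treated arrays lay above the untreated ones for 4 of the 9 genes (Has2, Has3, Cd44 and Sdc3), which held for 7.38% of all genes. They lay below for 0 of the 9, as for 7.37% of all genes. All 4 pairs had the treated array higher for 6 of the 9, these 4 with Hyal2 and Sdc1, as for 22% of all genes. These shares are given beside the counts and nothing is read from them, because the TGFbeta comparison was used to choose Has2 and Sdc3.

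**Figure D2:**
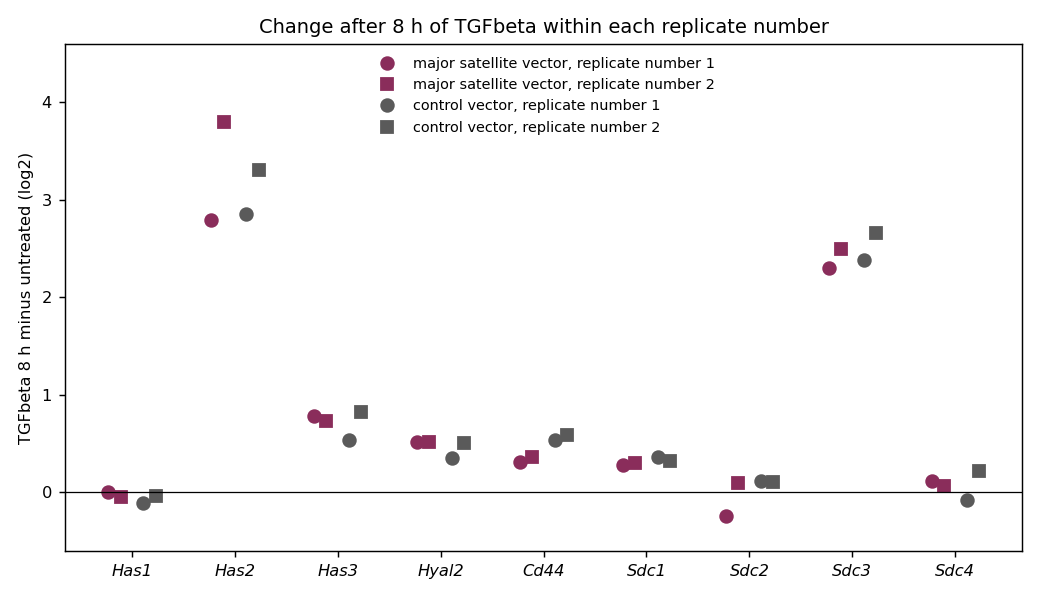
Log2 difference between TGFbeta-treated and untreated arrays (y axis) of each gene (x axis), with 1 point per vector and replicate number. The 4 points of Has2 lie between 2.79 and 3.80 and those of Sdc3 between 2.30 and 2.66, while the other 7 genes lie between -0.24 and 0.82.

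The level of several of these genes differed between the replicate numbers, and the block takes out the part common to all 4 groups. Averaged over the 4 groups, number 2 minus number 1 was -0.51 for Hyal2, -0.49 for Sdc1 and -0.51 for Sdc3. For Sdc1 this was larger in size than the difference with TGFbeta in either vector, and for Hyal2 larger than that in control vector cells. It was -0.29 for Sdc2, -0.27 for Sdc4 and -0.11 for Has2. The average was -0.02 for Has1, 0.03 for Has3 and 0.11 for Cd44. An average can hide opposite signs. Has2 was higher in number 2 in TGFbeta-treated major satellite cells (9.34 and 9.83) but lower in untreated ones (6.55 and 6.03). Has3 was higher in number 2 in treated control vector cells (7.16 and 7.54) but lower in treated major satellite cells (7.39 and 7.19). The block does not take out such differences. The titles do not say what the codes stand for beyond their number, and the source of these differences was not tested.

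The vector comparison asked whether cells carrying major satellite sequences differed in these genes, which the choice of genes did not use. None of the 9 genes passed in untreated cells, in TGFbeta-treated cells or on average over both treatments, with or without the block (limma, 0 of 9 at an adjusted p under 0.05, and 0 of 9 at an unadjusted p under 0.05 in each of these fits). Of all genes, 0.00502% passed without the block in untreated and also in treated cells and 0.01% on average. Blocked, 0.0301% passed in each of the first 2 comparisons and 0.0853% on average. In untreated cells, the differences of the 9 genes, major satellite minus control vector, ran from -0.14 (Has3) to 0.05 (Cd44). In TGFbeta-treated cells they ran from -0.22 (Sdc2) to 0.14 (Has2).

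The smallest blocked p in these comparisons belonged to treated cells. There, Cd44 was at 12.34 and 12.46 with the major satellite vector, against 12.51 and 12.65 with the control vector, a difference of -0.18 ± 0.08 with an unadjusted p of 0.0536 (adjusted p = 0.752). Sdc2 was at 8.25 and 8.17 with the major satellite vector, against 8.60 and 8.26 with the control vector, a difference of -0.22 ± 0.10 with an unadjusted p also of 0.0536 (adjusted p = 0.752). Both genes were lower with the major satellite vector in both replicate numbers.

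On average over both treatments, the blocked difference was 0.03 for Has2, with a 95% interval from -0.30 to 0.36, and -0.06 for Sdc3, with an interval from -0.21 to 0.10. For the other 7 genes the blocked average ran from -0.13 (Sdc2, interval -0.29 to 0.03) to 0.06 (Hyal2, interval -0.08 to 0.19). Intervals that hold 0 do not show that the vectors act alike. For these genes the blocked intervals leave room for average differences of -0.32 to 0.36. Those without the block leave room for -0.58 to 0.57.

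The TGFbeta responses of the 2 lines were compared directly, as the response in major satellite cells minus that in control vector cells. None of the 9 genes passed (limma, 0 at an adjusted and 0 at an unadjusted p under 0.05, with and without the block), as 0 of all 19937 genes did, so the background share was 0%. At an unadjusted p under 0.05 there were 44 genes over the whole table without the block and 658 blocked. The difference of responses was 0.21 ± 0.29 for Has2 and -0.13 ± 0.14 for Sdc3, blocked. The lowest was that of Cd44, at -0.23 ± 0.11 (unadjusted p = 0.0806, adjusted p = 0.999). Within the replicate numbers, the Cd44 response was 0.31 and 0.36 in major satellite cells, against 0.54 and 0.58 in control vector cells.

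**Figure D3:**
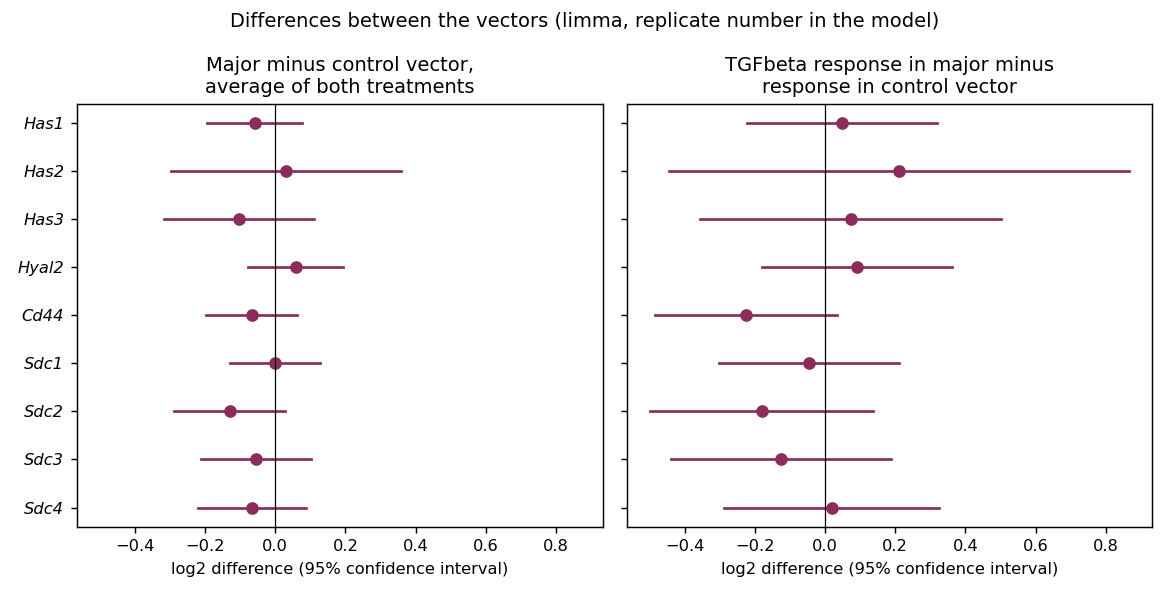
Blocked limma differences with 95% confidence intervals (x axis, log2) of the 9 genes (y axis), for major satellite minus control vector over both treatments (left) and for the TGFbeta response in major satellite minus that in control vector cells (right). Every interval holds 0, and the widest is that of Has2.

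The genes nearest to Has2 in pattern were found over the 8 arrays, after each gene was centred on its mean within a replicate number. Likeness was the root mean square difference of the centred log2 values, and 18343 genes were ranked. The 5 nearest to Has2 were Adgra1 (0.21), an adhesion G protein-coupled receptor, Ctsw (0.28), a cathepsin, Mab21l4 (0.30), Thbs1 (0.32), which encodes thrombospondin, and Lect2 (0.37), a secreted protein. The 5 nearest to Sdc3 were Gadd45a (0.08), a stress-response gene, Sh3bp2 (0.11), a signalling adaptor, Ctla2a (0.13), an inhibitor of cysteine proteases, Lect2 (0.13) and Lmcd1 (0.15). Sdc3 was number 8 in the order for Has2, at 0.41, and Has2 number 32 in the order for Sdc3, and the distance rises with any gap in the size of response. The nearest genes had responses of 2.51 to 3.72 for Has2 and 2.19 to 2.51 for Sdc3. This likeness is a description of 8 arrays and says nothing of shared control.

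Around the 9 genes, 152 genes of hyaluronan and proteoglycan metabolism were listed, of which 147 were measured. Without the block, 3 rose and 0 fell in major satellite cells, and 3 rose and 1 fell in control vector cells. Over all genes without the block, 0.682% rose and 0.411% fell in major satellite cells, and 0.707% and 0.366% in control vector cells. Blocked, 30 rose and 16 fell in major satellite cells, and 29 rose and 13 fell in control vector cells. Over all genes, 6.89% rose and 8.38% fell blocked in major satellite cells, and 6.92% and 7.63% in control vector cells. The median difference over the 147 genes was 0.10 in major satellite cells and 0.06 in control vector cells, beside 0.03 and 0.01 over all genes. In the vector comparisons and in the comparison of responses, 0 of the 147 passed with or without the block, and 0 to 9 had an unadjusted limma p under 0.05. With 1 array left out, the blocked counts were 14 to 32 risen and 8 to 15 fallen in major satellite cells, and the rises were 14, 15 and 18 without the untreated array of number 2, the treated array of number 2 and the untreated array of number 1 of that vector. In control vector cells they were 17 to 30 risen and 6 to 16 fallen, with 17 risen without the treated array of number 2 and 6 fallen without the untreated one. Without the block, leaving out 1 array gave 0 to 1 risen and 0 fallen in major satellite cells, and 0 to 2 risen and 0 to 1 fallen in control vector cells.

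Among the genes named in the next paragraphs, the blocked call passed in both vectors whichever array was left out for Uap1, Uap1l1, Tnfaip6, Gpc1, Col18a1, Hs3st1, B4galt7, Slc26a2, Sgsh, Csgalnact1, Csgalnact2, Chst11, Ust, Iqgap1, Ezr, Timp3 and Mmp14. For the others it was lost in at least 1 vector without at least 1 array. For Cemip2, Gfpt2, Ext1, Papss2 and Extl3 the loss was in major satellite cells alone (adjusted p up to 0.152), and for Itih2 and Ank3 in control vector cells alone (adjusted p up to 0.0611). Gnpnat1, Cemip, Stab1, Habp2, Hpse, Msn, Actn1, Mmp9 and Timp1 lost the call in both vectors (adjusted p up to 0.349). In each case named here an array of the vector in question was among those whose absence ended the call.

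Hyaluronan is built from the nucleotide sugars UDP-glucuronic acid and UDP-N-acetylglucosamine. Of 10 genes that supply them, 0 passed without the block. Blocked, 2 rose and 3 fell in major satellite cells, and 2 rose and 2 fell in control vector cells. Uap1, which makes UDP-N-acetylglucosamine, had 10.87 and 10.74 in TGFbeta-treated major satellite cells, against 10.22 and 9.85 untreated, and 10.92 and 10.78 in treated control vector cells, against 10.17 and 9.96 untreated. Its difference was 0.77 and 0.79 (blocked adjusted p = 0.000638 and 0.000535) in the 2 vectors. Gfpt2, an enzyme of the first step of the hexosamine pathway, rose blocked by 0.41 and 0.59. Its untreated level was low (6.64 to 7.03 over both vectors) and is not told apart from background without a detection call. The Uap1 paralog Uap1l1 (-0.64 and -0.74) and the acetyltransferase gene Gnpnat1 (-0.46 and -0.39) fell blocked. Here and in the next paragraphs, the first of 2 values is that of major satellite cells and the second that of control vector cells.

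The list for hyaluronan breakdown had 10 other measured genes, among them Ids and Idua, whose enzymes break down heparan and dermatan sulfate, not hyaluronan. Of these 10, 0 passed without the block and 2 rose blocked in both vectors. These were Cemip (0.38 and 0.59), which is needed for hyaluronan depolymerisation in fibroblasts, and Cemip2 (0.37 and 0.56), a related transmembrane protein. Of 26 hyaluronan-binding proteins and other receptors, 1 rose without the block, in major satellite cells, and 0 passed in control vector cells. It was Tnfaip6, which transfers the heavy chains of inter-alpha-trypsin inhibitor onto hyaluronan. Tnfaip6 had 7.31 and 7.38 in TGFbeta-treated major satellite cells, against 6.02 and 5.64 untreated, and 7.39 and 6.92 in treated control vector cells, against 6.12 and 5.93 untreated. It rose by 1.52 ± 0.20 in major satellite cells (adjusted p = 0.0328), and its difference of 1.13 in control vector cells passed blocked (adjusted p = 0.000459). With no detection call in the table, its low untreated levels are not told apart from background. Itih2, which encodes 1 of those heavy chains, fell blocked by 1.37 in major satellite cells and by 0.99 in control vector cells.

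Blocked, this binding list had 2 rises and 3 falls in major satellite cells and 3 rises and 2 falls in control vector cells. The scavenger receptor gene Stab1 was among the rises (0.49 and 0.55) and the protease gene Habp2 among the falls (-0.63 and -0.51). Vcan, which encodes versican, a large proteoglycan that binds hyaluronan, rose blocked in control vector cells (0.87). Vcan had 9.76 and 10.38 there after TGFbeta, against 9.17 and 9.23 untreated, and its blocked call was lost without either control vector array of number 2 (adjusted p up to 0.106). In major satellite cells, Vcan had 9.60 and 10.37 after TGFbeta, against 9.39 and 9.48 untreated.

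Of 15 other proteoglycan cores, 0 passed without the block. Blocked, 4 rose in major satellite cells and 2 in control vector cells, and 0 fell. Gpc1, a glypican tethered to the membrane by a lipid anchor, differed by 1.13 and 1.20, and Col18a1, a basement membrane collagen with heparan sulfate chains, by 0.74 and 0.81. Both rose blocked in both vectors. The 2 further rises in major satellite cells were Gpc2 (0.43) and Cspg4 (0.41), a chondroitin sulfate proteoglycan, and both were lost without either untreated or the second treated array of that vector (adjusted p up to 0.2).

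Of 31 genes for the linker and the heparan sulfate chain, Hs3st1 fell without the block in control vector cells and 0 passed in major satellite cells. Hs3st1, a sulfotransferase that adds a rare late sulfate to the chain, had 8.88 and 8.71 in TGFbeta-treated major satellite cells, against 10.13 and 9.69 untreated. With the control vector it had 8.76 and 8.67 after TGFbeta, against 10.13 and 9.89 untreated. It fell by 1.30 ± 0.18 in control vector cells (adjusted p = 0.0323), and its difference of -1.11 in major satellite cells passed blocked (adjusted p = 0.000167). Blocked, 4 genes of this list rose and 4 fell in major satellite cells, and 5 rose and 3 fell in control vector cells. Blocked rises in both vectors included B4galt7, which adds a galactose of the linker (0.77 and 0.81), Papss2, which makes the sulfate donor (0.58 and 0.97), and the chain polymerase gene Ext1 (0.57 and 0.87). Extl3, which starts heparan sulfate chains, also rose blocked (0.50 and 0.60), and the sulfate transporter gene Slc26a2 fell blocked (-1.15 and -0.99).

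Of 9 genes that edit or degrade heparan sulfate, 0 passed without the block, and 2 fell and 0 rose blocked in both vectors. Sgsh, a lysosomal sulfamidase, differed by -1.08 and -1.11, and Hpse, the heparanase that cuts chains outside the cell, by -0.53 and -0.72. In major satellite cells, the blocked Hpse call was lost without any untreated array of either vector and without the treated major satellite array of number 1. In control vector cells it was lost without either untreated control vector array or the treated one of number 2.

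Of 16 genes for chondroitin and dermatan sulfate, Csgalnact1 rose without the block in both vectors. This enzyme, which starts chondroitin chains, had 9.80 and 9.65 in TGFbeta-treated major satellite cells, against 8.72 and 8.69 untreated, and 9.85 and 9.87 in treated control vector cells, against 8.46 and 8.64 untreated. It rose by 1.01 ± 0.12 (adjusted p = 0.0247) in major satellite cells and by 1.30 ± 0.12 (adjusted p = 0.0114) in control vector cells. Blocked, 6 of the 16 rose and 1 fell in both vectors. The rises included the sulfotransferase genes Chst11 (1.26 and 1.22) and Ust (0.97 and 1.02). Untreated Ust was low (6.54 to 6.96 over both vectors), a level not told apart from background without a detection call. The fall was Csgalnact2 (-0.86 and -0.77), a paralog of Csgalnact1 with the same known activity.

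Of 16 genes listed for cytoplasmic partners of syndecans or of Cd44, not all of which bind the tails directly, Iqgap1 rose without the block in both vectors. It rose by 0.71 ± 0.11 (adjusted p = 0.0489) and 0.73 ± 0.11 (adjusted p = 0.045). Iqgap1 is a scaffold of the actin cortex. Blocked, 5 rose and 2 fell in major satellite cells, and 4 rose and 2 fell in control vector cells. Ezr, which encodes ezrin, a link between Cd44 and actin, had 12.24 and 11.81 in TGFbeta-treated major satellite cells, against 13.15 and 12.89 untreated. The control vector cells had 12.20 and 11.93 after TGFbeta, against 13.14 and 12.91 untreated. It fell blocked (-0.99 and -0.95, adjusted p = 0.000154 and 0.000172), while Msn, which encodes its relative moesin, rose blocked (0.59 and 0.60). Ank3, an ankyrin, fell blocked (-0.57 and -0.54), and Actn1, an actinin that binds the Sdc4 tail, rose blocked (0.59 and 0.66).

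Of 14 metalloproteinases that can shed these receptors and of their inhibitors, Timp3 rose without the block in control vector cells, by 1.92 ± 0.29 (adjusted p = 0.0419), and 0 passed in major satellite cells. Timp3 inhibits shedding proteases. Its levels were 10.68 and 11.42 in TGFbeta-treated major satellite cells, against 9.16 and 9.66 untreated, and 10.47 and 10.78 in treated control vector cells, against 8.82 and 8.59 untreated. Blocked, 5 of the 14 rose and 1 fell in each vector, not all of them the same genes. Mmp14, a membrane-bound metalloproteinase that cuts Cd44, rose blocked (0.62 and 0.74), as did Mmp9 (0.44 and 0.57) and the inhibitor gene Timp1 (0.87 and 0.72). Untreated Mmp9 was low (6.57 to 7.31 over both vectors), also a level not told apart from background. The fall in control vector cells was Adam17 (-0.38), a sheddase, and that in major satellite cells was Adamts1 (-0.47), a gene named after its values were seen. Adamts4, a protease of large proteoglycans, rose blocked in major satellite cells (0.54). The sheddase gene Adam10, also named after its values were seen, rose blocked in control vector cells (0.29, adjusted p = 0.0489). Its call was lost without any control vector array and without either untreated major satellite array. The calls of Adam17, Adamts1 and Adamts4 were lost without at least 2 arrays of the vector in question. In the vector where they did not pass, Adam17, Adamts1, Adamts4 and Adam10 each moved in the same direction in both replicate numbers.

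**Figure D4:**
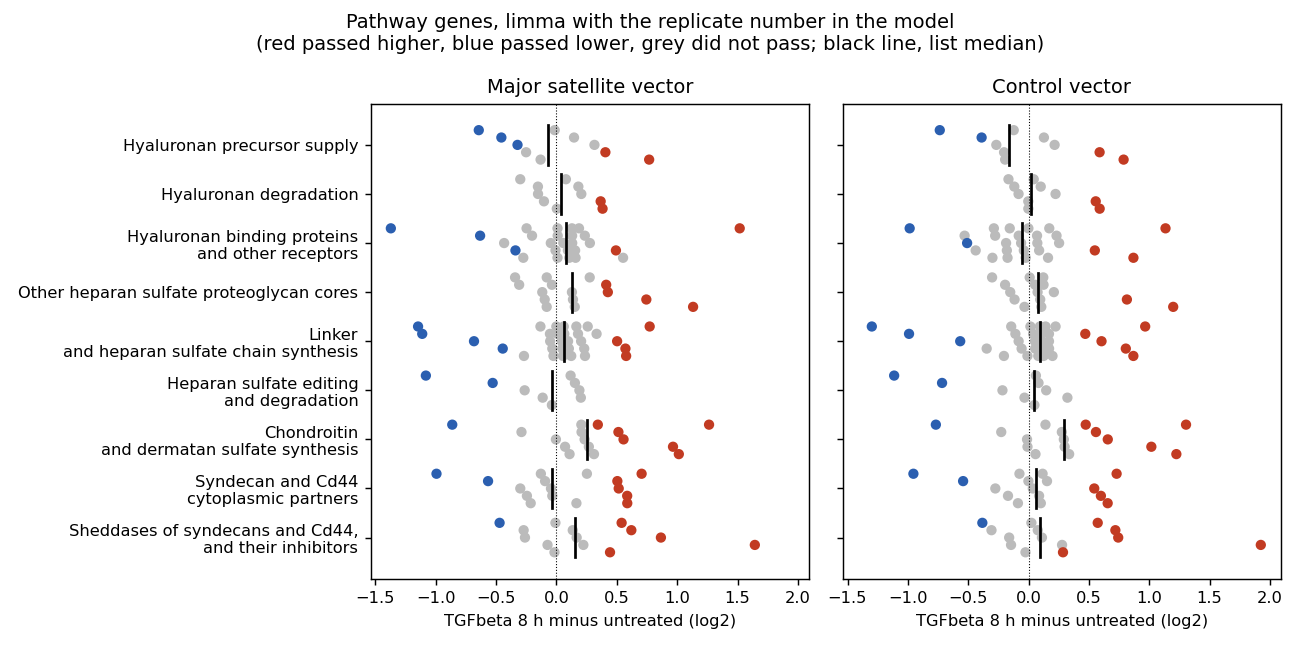
Log2 difference between TGFbeta-treated and untreated cells (x axis) of 147 genes in 9 lists (y axis), in major satellite (left) and control vector cells (right), coloured by whether they passed the blocked limma test. Each list holds grey genes near 0, and the list medians (black lines) lie between -0.16 and 0.30. Heparan sulfate editing and degradation has falls but no rises, and hyaluronan degradation and the other proteoglycan cores have rises but no falls.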

How the data were processed

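The deposited table holds log2 expression values per probeset for 8 arrays, which the authors made with RMA per the submitters' processing notes; these also name limma, and versions, roles and the genome build are not given in the sources used here. Of 34760 probesets, 21640 had 1 gene symbol in the platform annotation, and symbols were updated through Entrez identifiers (RefSeq, GRCm38.p6). For 954 genes with several probesets the one with the highest mean was kept, which left 19937 genes. Each of the 9 members had 1 probeset. The linear models were run in limma 3.58.1 under R 4.3.3 (1 mean per group, all 8 arrays, 4 residual degrees of freedom, two-sided, Benjamini-Hochberg over all genes, threshold 0.05). The blocked fit adds the replicate number (3 residual degrees of freedom). Pairing comes from the shared title codes, and deviations of same-numbered arrays from their group means correlated at 0.758 to 0.874 across genes. The fits were tested on simulated data. The labels do not state whether the 2 arrays of a group came from different cultures, and p-values reflect array-to-array spread, which may be technical.

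The members, lists and motifs were chosen with earlier results of these data known. All 9 members are described. Pathway genes were named by rule, as up to 4 genes per list and vector with the smallest p among those passing, first without and then with the block. Values shown for Vcan in major satellite cells, and further values of named genes in the other vector, were added for comparison, and Adamts1 and Adam10 were named after their values were seen. Not analysed here were probesets with several symbols (1321) or none (11799). Listed genes without a value from a probeset with 1 symbol are not reported here. The alternatives were the block, 2 other scalings, another variance prior, a filter on low values, the mean of probesets, and leaving out each array with and without the block. Leaving out an array leaves 1 in its group. For a comparison that does not use that group, leaving out either of its arrays gives the same fit, so these fits are not all distinct.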

Additional observations from a re-analysis of the deposited data

How the results depend on the processing

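With the replicate block, the count of genes passing was 3044 in place of 218 for TGFbeta in major satellite cells and 2901 in place of 214 in control vector cells. It was 6 in place of 1 for the vector difference in untreated cells, 6 in place of 1 in TGFbeta-treated cells and 17 in place of 2 on average. The difference between the responses stayed at 0. An intensity trend with a robust prior gave 124 genes for TGFbeta in major satellite cells. Centring each array on its median, or averaging probesets, gave 1 gene for the average vector difference. With 1 array left out without the block, the counts were 0 to 82 for TGFbeta in major satellite cells, 0 to 89 in control vector cells, 0 to 1 for the vector difference in untreated and in treated cells, 1 to 2 on average and 0 for the difference between responses. Blocked with 1 array left out, they were, in the same order of comparisons, 1228 to 3020, 1202 to 3161, 2 to 9, 1 to 107, 8 to 49 and 0 to 17, and the 107, 49 and 17 came without the treated major satellite array of number 1. The cause of these shifts was not tested, and a fit with fewer arrays has fewer degrees of freedom. For the 9 genes, 1182 differences were refitted. None changed sign where either fit had passed, but only part of the 1182 had such a pass. The TGFbeta differences of Has2 and Sdc3 were among that part, and because these genes were chosen for that rise, their unchanged sign is no test. A change of sign with no call in either fit occurred in 113 of the 1182, of which 110 left out an array, and none of these exceeded 0.32. The lowest 25% of genes, left out in 1 alternative, held Has1, so no value exists for it there.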
